A study of Rattus with 8 samples.

Results

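This report describes the predicted miRNAs of canonical length in the rat hippocampus after cardiopulmonary bypass with deep hypothermic circulatory arrest (CPB/DHCA). They are mature sequences of at least 19 nt that a prediction program proposed from these same libraries and that carry no miRBase name, miRBase being the public registry of miRNAs. Of 615 mature names in the deposited table, 151 were predicted, 55 of those were shorter than 19 nt and 2 were left out by the selection, which left 94 predicted miRNAs with 90 distinct sequences beside 464 names of miRBase. A predicted miRNA is called here by the chromosome and number in its name, so that chr19_10028 is a sequence predicted on chromosome 19.

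Small RNA was sequenced from hippocampal tissue of 9-week-old male Sprague-Dawley rats, with 4 libraries in the CPB/DHCA group and 4 in the control group. The CPB/DHCA group was put on bypass at normal temperature, cooled to 18 °C over 30 min, held in circulatory arrest for 30 min and then rewarmed, and the control group was sham-operated, with intubation and cannulation but neither bypass nor arrest. Both groups received sevoflurane and acetaminophen, and the hippocampus was collected 24 h later from rats that had completed the procedure. Nothing in the labels says more of the libraries' origin than that they are separate samples with 1 batch label, so p values measure the spread between these libraries.

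A mature miRNA is a short RNA cut by Drosha and Dicer from the stem of a hairpin and loaded into an Argonaute protein. Bases 2 to 8, the seed, pair with target mRNAs, and the cut leaves a precise 5′ end, whereas the 3′ end is often trimmed or extended, which gives forms called isomiRs. Prediction programs search for stacks of reads on a possible hairpin. A predicted sequence can thus be an unregistered miRNA, a form of a registered one or a fragment of another small RNA, and the table by itself does not separate these.

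Depth decided what could be measured. The libraries held 508574 to 672378 tags (reads assigned to a mature name) in the CPB/DHCA group and 620133 to 772840 tags in the control group, so 1 tag stood for 1.49 to 1.97 CPM (tags scaled to the library total) in the CPB/DHCA group and for 1.29 to 1.61 CPM in the control group. The table lists no count of 1, so an empty cell is 0 or 1 tag and was read as 0. An observed count of 0 still allows an expected level of about 3 tags in a library, and an observed count of 1 allows more. The tissue label was checked against neuronal marker miRNAs, which summed to 184465 to 372518 CPM in the CPB/DHCA group and 235151 to 338958 CPM in the control group. Epithelial miRNAs stood apart in CPB/DHCA 4 (32921 CPM) and control 4 (967 CPM), against 10.3 to 28.6 CPM in the other CPB/DHCA libraries and 4.58 to 13.9 CPM in the other control libraries, and counts of calls are given below also without these libraries.

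Printed with the seed in capitals, the 3 predicted miRNAs that lie within a miRBase sequence of the same table are shown first, each above its miRBase counterpart, because they differ from it at the 3′ end alone.
chr19_10028: uGGCUCAGuucagcaggaac
miR-24-3p: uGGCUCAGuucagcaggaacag
chr3_12731: aCAGUAGUcugcacauugguu
miR-199a-3p: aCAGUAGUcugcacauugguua
chr6_17464: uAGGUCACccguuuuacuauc
miR-1193-3p: uAGGUCACccguuuuacuaucc

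In chr19_10028 the last 2 bases of miR-24-3p (AG) are missing, in chr3_12731 the last A of miR-199a-3p, and in chr6_17464 the last C of miR-1193-3p. The 5′ end and the seed are those of the miRBase sequence in each pair. miR-24 belongs to the clusters that also hold miR-23 and miR-27, and miR-1193 lies in the imprinted Dlk1-Dio3 region. miR-199a is made in part, not only, from the Dnm3os transcript, together with miR-214. The chromosome in a predicted name is where the prediction placed it, and its place relative to these loci was not analysed.

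The other relations to miRBase sequences are shown next with the seed in capitals, because each rests on 1 or 2 differing bases. Positions are counted from 1 at the 5′ end, with the miRBase base first.
chr1_1840: gGUAUAACcaaagcccgacuga
miR-344b-3p: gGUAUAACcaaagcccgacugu
chr1_1835: aGUCAGGCuacugguuauauucc
miR-344b-5p: aGUCAGGCugcugguuauauuc
chrX_22219: uCCAGCAUcagugauuuugg
miR-338-3p: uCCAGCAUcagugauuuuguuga
chr17_9209: uGUGUUUUguguauguacaugu
miR-466c-5p: uGUGAUGUguguauguacaug

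chr1_1840 differs from miR-344b-3p by U22A, its last base. chr1_1835, whose sequence also stands under the names chr1_1845 and chr1_1853, differs from miR-344b-5p by G10A and has 1 base more at the 3′ end. chrX_22219 differs by U20G from miR-338-3p, a miRNA of maturing oligodendrocytes, and chr17_9209 differs by A5U and G7U, both in the seed, from miR-466c-5p. The miR-344 family is known from the rodent brain, and the miR-466 family from an intron of Sfmbt2 in mouse.

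1 predicted miRNA is the reverse complement of a registered one. It is shown with the 21 shared bases in capitals, above the reverse complement of miR-124-5p, the minor arm of the hairpin that gives the neuronal miR-124-3p.
chr2_11574: UCAAGGUCCGCUGUGAACACGg
reverse complement of miR-124-5p: aUCAAGGUCCGCUGUGAACACG

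None of the 94 predicted miRNAs equalled a miRBase sequence of the table. In all, 9 of the 94 names overlapped a miRBase sequence in sense over at least 17 bases with at most 3 mismatches, and 11 names, with 9 distinct sequences, carried the seed of one. Beside the pairs above, chr17_8933 has the seed of miR-96-5p, chr7_18813 that of miR-542-3p and chr10_3764 that of miR-331-3p.

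The predicted miRNAs with the most tags and no such relation within the table are printed next, with the seed in capitals. The levels below turn on them. They were not compared with other classes of small RNA or with sequences outside the table, so what RNA each comes from was not tested. The files name no gene for any of them.
chr4_14815: gGCUGGUCcgaagguagugaguu
chr11_4294: cUAAGGCAggcagacuucagu
chr17_8695: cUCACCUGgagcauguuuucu
chrX_22443: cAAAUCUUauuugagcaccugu
chr8_19905: aUCAUCAUcaucauuaucauca
chr17_9252: gGUUCAGUgguagaauucuc
chr15_7676: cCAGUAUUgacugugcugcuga
chr7_18408: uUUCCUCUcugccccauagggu

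As a set, the predicted miRNAs resembled those of miRBase in first base and GC content. Length was bounded from below by the selection, so a likeness in length follows in part from it. It ran from 19 to 25 nt with a median of 22 nt, and 82.2% of the 90 distinct sequences were 21 to 23 nt long, against 92.2% of the miRBase sequences. At the length limit, 2 sequences had 19 nt. The first base was U in 44.4%, A in 25.6%, C in 20% and G in 10.0% of the sequences, against 40.8% U in miRBase and 30.0% U in the predicted sequences under 19 nt. A 5′ U is the base that Argonaute proteins hold most readily. The GC content had a median of 50.0% (27.3% to 72.7%), against 47.6% in miRBase. Of the sequences, 10.0% had the seed of a miRBase sequence of the table, while 28.5% of the miRBase sequences shared a seed with another one. The 10.0% was uneven. It was 21.2% among the 33 sequences with enough tags to be tested below and 3.51% among the 57 others. Among the predicted sequences under 19 nt it was 16%. By their names, 44 of the 94 came from 4 chromosomes, 1 (16 predicted miRNAs), 17 (13), 7 (8) and 8 (7).

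In abundance they did not resemble them. The median predicted miRNA of canonical length had 5 tags over all 8 libraries, against 220.5 tags for a miRBase name and 43 tags for a predicted name under 19 nt. Only 21 of the 94 were listed in all 8 libraries and 41 in a single one, 56 had fewer than 10 tags, and 55.7% of their 752 cells were empty. Levels were steep, since chr19_10028 (6840 tags) and chr4_14815 (6739 tags) held 68.4% of the 19845 tags of the whole set (tags of identical sequences counted under each name) and the first 7 held 91.8%. Among all 615 names, chr19_10028 and chr4_14815 ranked 62 and 63 by tags.

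**Figure D1:**
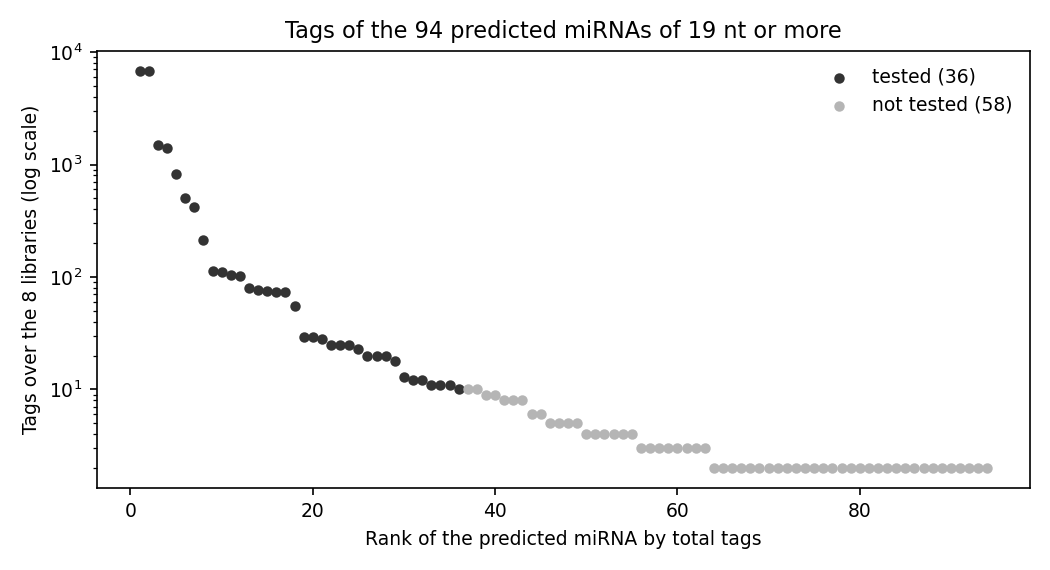
Tags over the 8 libraries (vertical axis, log scale) of the 94 predicted miRNAs of 19 nt or more, in order of their total (horizontal axis), with dark points for the 36 that could be tested and grey points for the other 58. The curve drops steeply after the first 2 sequences, and no untested sequence exceeds 10 tags.

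The set as a whole took a like share of the libraries in both groups. It made up 0.394%, 0.433%, 0.447% and 0.277% of all tags in the CPB/DHCA libraries (mean 0.388% ± 0.077, SD, n = 4) and 0.366%, 0.406%, 0.344% and 0.359% in the control libraries (mean 0.369% ± 0.027, SD, n = 4). The groups overlapped, and CPB/DHCA 4 held the lowest share of all 8. Without the 2 most abundant sequences, the share was 0.110% ± 0.015 in the CPB/DHCA group and 0.125% ± 0.025 in the control group (SD, n = 4 each). The predicted sequences under 19 nt took 0.655% ± 0.175 in the CPB/DHCA group and 0.462% ± 0.125 in the control group.

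The question of the design is which of these miRNAs differed between the CPB/DHCA group and the control group. Counts were fitted for the 467 names that had 10 or more tags in sum and were present in 4 or more libraries, among them 36 predicted miRNAs of canonical length (33 sequences). At a fold change of at least 1.5 with an unadjusted p of at most 0.05, 2 of these 36 were lower in the CPB/DHCA group, chr3_12731 and chr17_9208, and 0 were higher. Over all 467 names 3.43% were lower, 3.85% higher and 7.28% either, so the 2 of 36 lie near the background. At a Benjamini-Hochberg adjusted p under 0.05 in edgeR's quasi-likelihood test none of the 36 passed, against 0.214% of all names. That share is 1 name, a predicted one that the selection left out, and no miRBase name passed either. An unadjusted p under 0.05 was found for 2 of the 36, against 39 of all 467 names. DESeq2 gave 1 of the 36 past the fold and p thresholds, a lower one, against 13 lower and 19 higher among the 467 names. At its adjusted p none of the 36 passed, against 2 of all names.

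The direction of the 36 was nearly balanced, with 16 log2 fold changes above 0 and 20 below. Their median log2 fold change (CPB/DHCA over control) was -0.10, with quartiles at -0.33 and 0.20, against a median of -0.05 over all names tested and -0.07 over the 387 miRBase names. Of the 42 tested predictions under 19 nt, 9 were higher and none lower, with a median of 0.63. These are descriptions of the classes, and the difference between them was not tested.

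**Figure D2:**
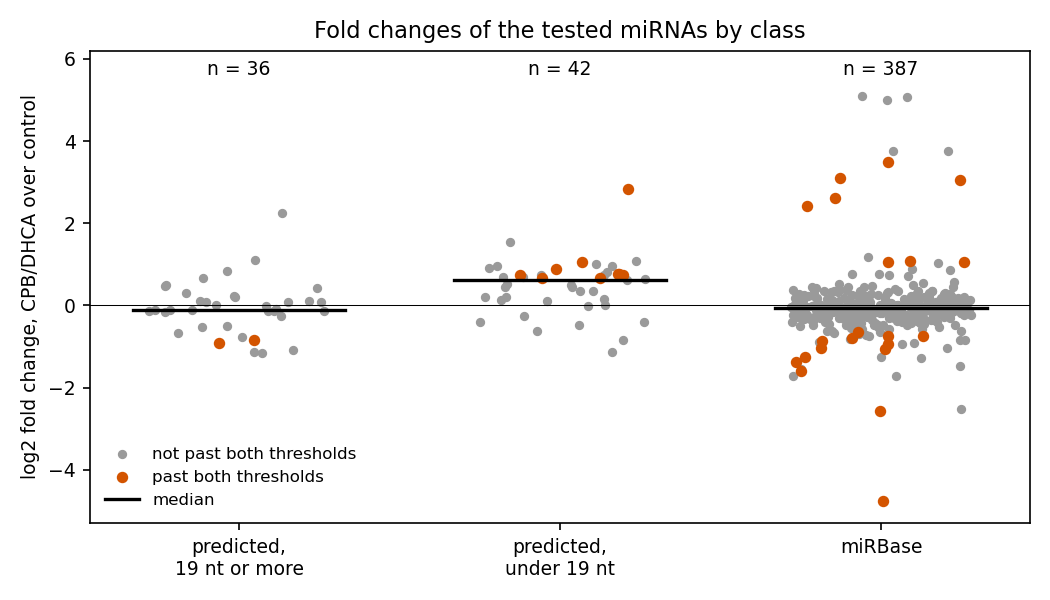
Log2 fold change of CPB/DHCA over control (vertical axis) for each tested miRNA, by class: 36 predicted of 19 nt or more, 42 predicted under 19 nt and 387 of miRBase. Orange points passed a fold change of 1.5 and an unadjusted p of 0.05, and black lines are medians. The first class centres near 0 with 2 orange points, both below 0.

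chr3_12731, the form of miR-199a-3p without its last A, had 158, 260, 116 and 217 normalized CPM in the CPB/DHCA libraries, against 380, 476, 283 and 197 normalized CPM in the control libraries, from 441 tags in the CPB/DHCA group and 974 tags in the control group. Control 2 was the highest of all 8, and control 4 lay among the CPB/DHCA libraries. The means were 188 ± 63.7 in the CPB/DHCA group and 334 ± 121 in the control group (SD, n = 4 each), and the groups overlapped. The log2 fold change was -0.83 (SE 0.33, p = 0.030, adjusted p = 0.53 in edgeR's quasi-likelihood test), and the exact two-sided permutation test gave p = 0.086 (0.71 adjusted over the 467 names). The call was lost when CPB/DHCA 1, CPB/DHCA 3, control 1 or control 2 was left out, with log2 fold changes between -1.03 and -0.59 over the 8 omissions, and it stood without CPB/DHCA 4 and control 4 together (-1.10).

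The full-length miR-199a-3p had a smaller fold change of the same sign. It had 62, 63, 63 and 70 tags in the CPB/DHCA libraries, against 113, 186, 102 and 49 tags in the control libraries, with control 4 the lowest and control 2 the highest. Its log2 fold change was -0.52 (SE 0.30, adjusted p = 0.73), which did not pass the test. With the tags of chr3_12731 added to those of miR-199a-3p, the log2 fold change was -0.72 (SE 0.31, adjusted p = 0.53 in edgeR's quasi-likelihood test), so the joint value passed the unadjusted thresholds as well. Of the tissue marker lists, striated muscle was the one with lower members, with 1 of 3 past the same thresholds and summed levels of 58.7 to 122 CPM in the CPB/DHCA group and 87.9 to 327 CPM in the control group, control 1 being the highest. Its part in the result was not tested. In bulk tissue, fewer cells of a type and less RNA per cell cannot be told apart.

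chr17_9208 was the other one past the thresholds, at far fewer tags.
chr17_9208: uGUAAGUGuguauguauaugu
chr17_9211: uGUCUGUGuguauguccaugu
It is printed with its relative chr17_9211, seeds in capitals, because they agree at 17 of 21 positions.

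chr17_9208 had 5, 2, 5 and 5 tags in the CPB/DHCA libraries, against 10, 14, 9 and 5 tags in the control libraries. Every CPB/DHCA library was at or below the lowest control library in tags, though CPB/DHCA 4 lay above control 4 in normalized CPM. The means were 6.84 ± 2.05 CPM in the CPB/DHCA group and 13.1 ± 3.85 CPM in the control group (SD, n = 4 each), with a log2 fold change of -0.92 (SE 0.38, p = 0.039, adjusted p = 0.53 in edgeR's quasi-likelihood test) and an exact permutation p of 0.057 (0.64 adjusted over the 467 names). The call did not hold in DESeq2, and of the 8 single omissions only those of CPB/DHCA 4 and of control 4 left it standing. At 2 to 14 tags a library, counting error alone is a large part of each value.

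Neither chr17_9211 nor chr17_9209, which is numbered between them, passed the test. chr17_9209 had 6, 2, 14 and 4 tags in the CPB/DHCA libraries, against 14, 3, 19 and 13 tags in the control libraries (log2 fold change -0.77, SE 0.61, adjusted p = 0.88). chr17_9211 had 3, 3, 5 and 0 tags in the CPB/DHCA libraries, against 8, 4, 4 and 2 tags in the control libraries (log2 fold change -0.50, SE 0.71, adjusted p = 0.99). The groups overlapped for both. The 3 together counted 54 tags in the CPB/DHCA group and 105 tags in the control group, a sum taken after their values had been seen.

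The share of the shorter form was compared for the registered partners, since it does not depend on the scaling of the libraries. For miR-24 most tags were counted under the predicted name, 6840 in all against 1162 for the miRBase name, 5.89 times as many. How a read that fits both precursors was assigned is not given in the sources used here, so these shares are those of the names in the table and may not be those of the RNA forms. Its share of both was 85.8%, 85.2%, 88.0% and 85.1% in the CPB/DHCA libraries, against 84.6% to 85.3% in the 4 control libraries. This share hardly varied between libraries, and the difference between the means of 86.0% ± 1.34 in the CPB/DHCA group and 84.9% ± 0.31 in the control group (SD, n = 4 each) did not pass the exact two-sided permutation test (p = 0.11, adjusted over 4 pairs 0.23). The difference of 1.08 percentage points was 0.43 without CPB/DHCA 3.

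For miR-199a-3p the name without the last A also had more tags, 1415 in all against 708. It made up 63.5%, 67.4%, 56.2% and 63.5% in the CPB/DHCA libraries, against 68.8%, 68.2%, 66.7% and 71.5% in the control libraries. CPB/DHCA 3 was the lowest of all 8, and CPB/DHCA 2 lay among the control libraries. The mean difference was -6.11 percentage points (62.7% ± 4.64 in the CPB/DHCA group and 68.8% ± 2.03 in the control group, SD, n = 4 each), with an exact permutation p of 0.057 and 0.23 adjusted over the 4 pairs. Without CPB/DHCA 3 the difference was -3.97.

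Both names of miR-1193-3p had about as many tags, with 77 tags for chr6_17464 and 67 for the miRBase sequence. The share of the shorter form averaged 52.0% ± 4.88 in the CPB/DHCA group and 55.2% ± 6.57 in the control group (SD, n = 4 each, exact permutation p = 0.46, adjusted 0.61). chr1_1840 had 11 tags against 107 for miR-344b-3p, and its share did not pass the test either (exact permutation p = 0.66, adjusted 0.66). The smallest p that 4 against 4 libraries allow is 0.029. Altogether the 3 shorter forms held 42.0% of the tags of the 94 predicted miRNAs, 40.5% in the CPB/DHCA group and 43.3% in the control group.

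**Figure D3:**
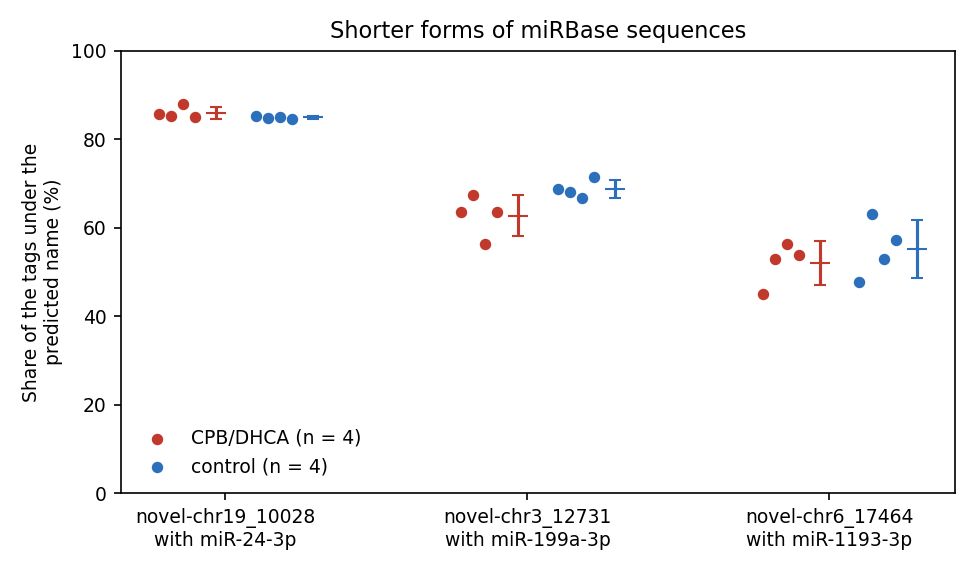
Share of tags under the predicted, shorter name among the tags of that name and its miRBase partner (vertical axis, percent), with 1 point a library and bars for mean ± SD (n = 4 a group), CPB/DHCA in red left of control in blue. The miR-24-3p points lie within 84.6% to 88.0% in all libraries, and the miR-199a-3p points run from 56.2% to 67.4% in the CPB/DHCA group and from 66.7% to 71.5% in the control group.

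The levels of chr19_10028 and chr4_14815 showed no difference past the thresholds. chr19_10028 had 994, 799, 884 and 646 tags in the CPB/DHCA libraries, against 898, 759, 961 and 899 tags in the control libraries (1367 ± 201 CPM in the CPB/DHCA group and 1262 ± 240 CPM in the control group, SD, n = 4 each). Its log2 fold change was 0.12 (SE 0.19, adjusted p = 0.99) and that of miR-24-3p itself was -0.0032 (SE 0.22, adjusted p = 0.998), so neither form passed the test. chr4_14815 had 884, 879, 1084 and 506 tags in the CPB/DHCA libraries, against 799, 1128, 828 and 631 tags in the control libraries (1376 ± 370 CPM in the CPB/DHCA group and 1181 ± 143 CPM in the control group, SD, n = 4 each). Its log2 fold change was 0.22 (SE 0.21, adjusted p = 0.93). CPB/DHCA 4 was the lowest library and CPB/DHCA 2 the highest in CPM, so the CPB/DHCA group spanned the whole control group.

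chr11_4294 was the steadiest of the abundant ones. It had 185, 134, 192 and 151 tags in the CPB/DHCA libraries, against 194, 239, 201 and 193 tags in the control libraries. In normalized CPM these were 271, 268, 274 and 268 in the CPB/DHCA libraries and 296, 286, 279 and 308 in the control libraries, so the groups did not overlap. Scaled by library totals without TMM factors they did overlap, with 239 to 310 CPM in the CPB/DHCA group and 266 to 311 CPM in the control group. The coefficient of variation was 1.02% in the CPB/DHCA group and 4.40% in the control group, both below the 7.84% and 6.97% that counting error alone gives at these numbers of tags. The difference was small, with a log2 fold change of -0.11 (SE 0.14, adjusted p = 0.96), and did not pass edgeR's test. The exact permutation p of 0.029 is the smallest that 4 against 4 libraries can give (0.61 adjusted over the 467 names).

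chrX_22595 was the other predicted miRNA whose groups did not overlap, which makes 2 of 36, against 4.71% of all 467 names.
chrX_22595: aUUGGGAAcauuuugcauaaau
It had 3, 2, 3 and 0 tags in the CPB/DHCA libraries, against 8, 5, 5 and 3 tags in the control libraries, or 3.17 ± 2.12 CPM in the CPB/DHCA group and 7.48 ± 3.27 CPM in the control group (SD, n = 4 each). The log2 fold change was -1.15 (SE 0.65, adjusted p = 0.72), and the exact permutation p was again 0.029 (0.61 adjusted over the 467 names). In CPM the groups came within 4.39 in CPB/DHCA 1 and 4.79 in control 4, a gap of less than 1 tag, and on library totals without TMM factors the groups overlapped.

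chr17_8695 had 121, 51, 89 and 80 tags in the CPB/DHCA libraries, against 100, 171, 122 and 84 tags in the control libraries. The CPB/DHCA mean was 137 ± 31.4 CPM and the control mean 165 ± 30.0 CPM (SD, n = 4 each), with overlapping groups and a log2 fold change of -0.27 (SE 0.22, adjusted p = 0.88). chr8_19905, made of UCA triplets with a UUA among them, had 76, 30, 53 and 31 tags in the CPB/DHCA libraries, against 46, 45, 79 and 62 tags in the control libraries (log2 fold change -0.13, SE 0.30, adjusted p = 0.99). Both differences were smaller than the spread within a group.

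chr17_9252 varied widely within both groups. It had 10, 30, 77 and 23 tags in the CPB/DHCA libraries, against 17, 22, 4 and 30 tags in the control libraries, or 56.4 ± 40.3 CPM in the CPB/DHCA group and 26.4 ± 17.3 CPM in the control group (SD, n = 4 each). CPB/DHCA 3 and control 3 stood at opposite ends, and CPB/DHCA 1 lay below 3 of the 4 control libraries. The log2 fold change of 1.10 (SE 0.64, adjusted p = 0.73) did not pass, though it passed the unadjusted thresholds when CPB/DHCA 1 was left out (1.45) and when both libraries numbered 4 were left out (1.66). Without CPB/DHCA 3 it was 0.52 and without control 3 it was 0.76. Oligodendrocyte miRNAs, 1 of 3 of which was higher in the CPB/DHCA group at the unadjusted thresholds, summed to 12277, 5345, 23201 and 7629 CPM in the CPB/DHCA libraries and to 6477 to 8095 CPM in the control libraries. They were highest in CPB/DHCA 3, as chr17_9252 was, but low in CPB/DHCA 2, where chr17_9252 was second highest (60.1 CPM), and second highest in CPB/DHCA 1, where it was lowest of the group (14.6 CPM). Erythrocyte miRNAs, 3 of 4 of which were higher at the same thresholds, summed to 104 to 190 CPM in the CPB/DHCA group. In the control group they summed to 96.9 to 136 CPM. The part of either list in the value was not tested.

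chr15_7676 and chr7_18408 had overlapping groups. chr15_7676 had 18, 8, 28 and 10 tags in the CPB/DHCA libraries, against 12, 6, 18 and 14 tags in the control libraries (log2 fold change 0.49, SE 0.43, adjusted p = 0.91). chr7_18408 had 16, 14, 3 and 18 tags in the CPB/DHCA libraries, against 13, 18, 9 and 20 tags in the control libraries, and its log2 fold change of 0.01 (SE 0.51, adjusted p = 0.998) turned its sign under 4 alternative scalings or fits. The third library of each group was low for chr7_18408.

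**Figure D4:**
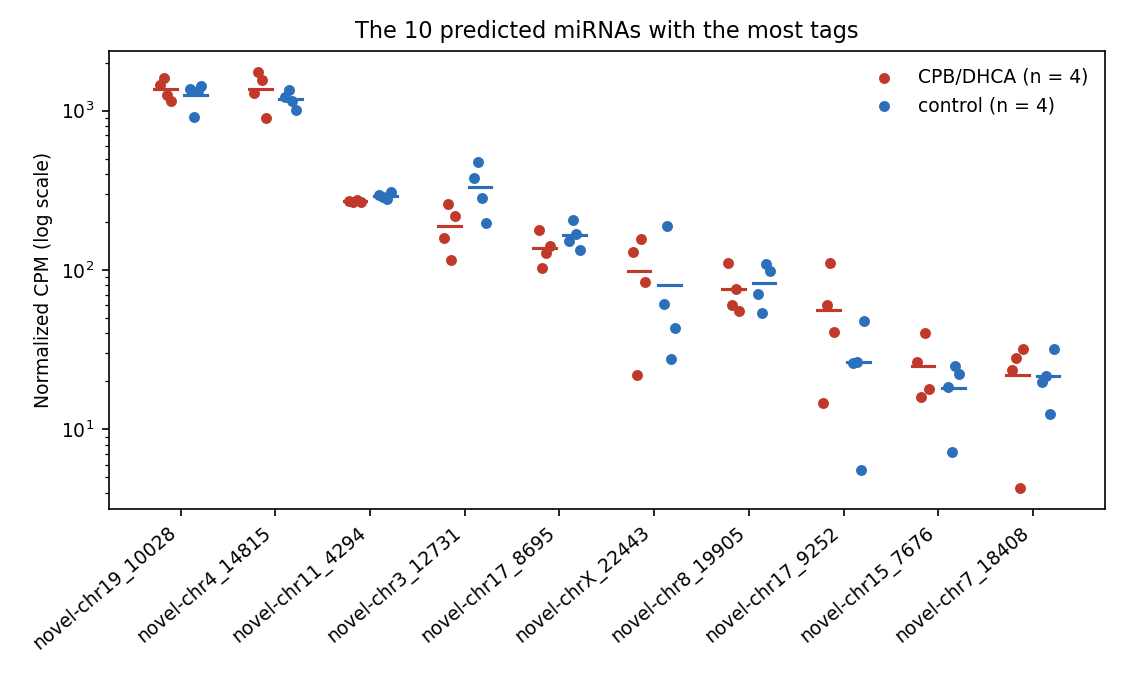
Normalized CPM (vertical axis, log scale) of the 10 predicted miRNAs with the most tags, with 1 point a library, CPB/DHCA in red left of control in blue, and horizontal lines at the group means (n = 4 each). chr11_4294 has the tightest points (268 to 274 CPM in the CPB/DHCA group and 279 to 308 CPM in the control group), whereas chrX_22443 spreads over 22.0 to 188 CPM.

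chrX_22443 varied between libraries more than between groups. It had 88, 11, 110 and 47 tags in the CPB/DHCA libraries, against 40, 157, 20 and 27 tags in the control libraries, an 8.53-fold range in normalized CPM over the 8 libraries. Control 2 was the highest, and CPB/DHCA 2 and control 3 the lowest. The means were 97.9 ± 59.0 CPM in the CPB/DHCA group and 79.9 ± 73.2 CPM in the control group (SD, n = 4 each), with a log2 fold change of 0.29 (SE 0.66, adjusted p = 0.99).

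The miRBase names miR-1298, miR-448-3p and miR-764-3p, picked after their values had been seen, showed the same high and low libraries. miR-1298 had 461, 56, 547 and 403 tags in the CPB/DHCA libraries, against 550, 1336, 169 and 377 tags in the control libraries, a 14.3-fold range in CPM. miR-448-3p had 21, 3, 26 and 12 tags in the CPB/DHCA libraries, against 19, 61, 7 and 14 tags in the control libraries. miR-764-3p had 16, 0, 24 and 5 tags in the CPB/DHCA libraries, against 10, 41, 3 and 5 tags in the control libraries. All 3 were highest in control 2 and lowest in CPB/DHCA 2, with control 3 next to lowest. The other arm, miR-448-5p, had 6, 0, 5 and 4 tags in the CPB/DHCA libraries, against 3, 13, 4 and 4 tags in the control libraries, with the same highest and lowest library but with control 1 next to lowest.

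In the GRCr8 annotation of RefSeq the genes of these 3 miRNAs lie within the span of Htr2c on chromosome X, the gene of the serotonin 2C receptor, which epithelial cells of the choroid plexus express strongly. Where chrX_22443 lies relative to Htr2c was not analysed here. The summed level of the marker list of choroid plexus and ependyma was 1512, 1178, 3658 and 1863 CPM in the CPB/DHCA libraries and 2396, 4126, 1660 and 2754 CPM in the control libraries. It was likewise highest in control 2, next to highest in CPB/DHCA 3 and lowest in CPB/DHCA 2. Elsewhere the orders differed. CPB/DHCA 1 was next to lowest for the list but had 129 CPM of chrX_22443. Control 4 had 2754 CPM for the list but 43.1 CPM of chrX_22443, among its lower values. All 5 miRNAs of the list were listed in both groups. How much of that tissue each dissection held, and its part in these values, was not tested.

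**Figure D5:**
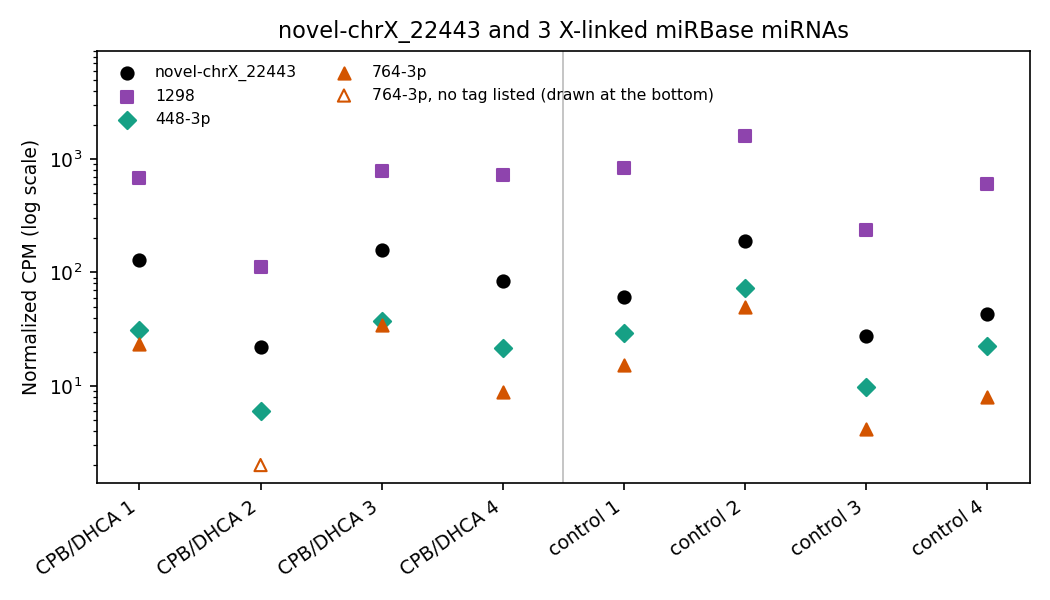
Normalized CPM (vertical axis, log scale) of chrX_22443 and of the miRBase names miR-1298, miR-448-3p and miR-764-3p in each of the 8 libraries, CPB/DHCA left of control. The 4 symbols are together at their highest in control 2 (188 CPM for chrX_22443 and 1599 CPM for miR-1298) and at their lowest in CPB/DHCA 2, where miR-764-3p had no listed tag and is drawn at the bottom as an open symbol.

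The remaining forms related to miRBase sequences were scarce. chr6_17464 had 9, 9, 9 and 7 tags in the CPB/DHCA libraries, against 10, 12, 9 and 12 tags in the control libraries (log2 fold change -0.12, SE 0.28, adjusted p = 0.997). chr1_1835 had 3, 3, 2 and 3 tags in the CPB/DHCA libraries, against 3, 3, 4 and 4 tags in the control libraries, a near-constant low level (log2 fold change -0.12, SE 0.48, adjusted p = 0.998). These counts are listed in full under each of its 3 names, so the same tags appear 3 times in the table. chr1_1840 had 2, 2, 0 and 0 tags in the CPB/DHCA libraries, against 2, 3, 0 and 2 tags in the control libraries (log2 fold change -0.53, SE 1.08, adjusted p = 0.99). chr2_11574, the reverse complement of miR-124-5p, had 5, 4, 0 and 2 tags in the CPB/DHCA libraries, against 2, 3, 2 and 5 tags in the control libraries (log2 fold change 0.09, SE 0.79, adjusted p = 0.998). Its 23 tags in all compare with 856 for miR-124-5p.

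chr18_9309 had the largest fold change of the 36 and rests on 12 tags, and with empty cells at 1 tag in place of 0 its log2 fold change was 1.29.
chr18_9309: uGAUUAGUagccuaauauuc
It had 0, 3, 4 and 3 tags in the CPB/DHCA libraries, against 0, 0, 0 and 2 tags in the control libraries (log2 fold change 2.26, SE 1.20, adjusted p = 0.71). Each group held a library at 0 tags, and the value passed the unadjusted thresholds only when CPB/DHCA 1 (2.72) or control 4 (4.53) was left out.

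Another identical pair is chr5_16063 and chr18_9884, which carry the same sequence and the same counts on different chromosomes. They had 10, 5, 14 and 6 tags in the CPB/DHCA libraries, against 4, 22, 8 and 5 tags in the control libraries (log2 fold change 0.08, SE 0.49, adjusted p = 0.998). chr8_20335, with 19 nt the shortest tested, had 8, 19, 12 and 15 tags in the CPB/DHCA libraries, against 14, 9, 7 and 17 tags in the control libraries (log2 fold change 0.43, SE 0.46, adjusted p = 0.95). For both the groups overlapped. The tested predicted miRNAs not named here had log2 fold changes between -1.12 and 0.83, and none of them passed.

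Spread within groups was compared by class. Among names with at least 100 tags, the median coefficient of variation was 33.8% in the CPB/DHCA group and 36.8% in the control group for the 12 predicted miRNAs of canonical length, against 21.7% in the CPB/DHCA group and 18.8% in the control group for 269 miRBase names. Among names with fewer tags it was 69.0% in the CPB/DHCA group and 70.1% in the control group for the 24 predicted miRNAs, against 67.1% in the CPB/DHCA group and 57.2% in the control group for 118 miRBase names. The fitted biological coefficient of variation had a median of 0.401 for the 36 tested, against 0.302 for miRBase names. These are descriptions with no test, and depth was not matched, since the miRBase names include far more abundant ones.

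The 58 predicted miRNAs that did not pass the filter held 116 tags in the CPB/DHCA group and 88 tags in the control group. 30 of them were listed only in CPB/DHCA libraries, 17 only in control libraries and 11 in both, and 31 had a total of 2 tags. As 41 of the 58 were listed in a single library, those could stand in 1 group only. The split between the groups was not tested or set against that of the other untested names.
chr1_1744: aGCGGUGCuccucugucugc
chrX_22219: uCCAGCAUcagugauuuugg
These 2, with seeds in capitals, were the only ones of the 58 with at least 8 tags in 1 group and none in the other. chr1_1744 had no listed tag in the CPB/DHCA libraries, against 0, 5, 3 and 2 tags in the control libraries. In a fit with no filter on low counts it was lower in the CPB/DHCA group at the unadjusted thresholds and did not pass the adjusted one, and no fold is given against libraries with no listed tag. chrX_22219 had 2, 0, 6 and 0 tags in the CPB/DHCA libraries, against none in the control libraries, while miR-338-3p had 707, 220, 993 and 381 tags in the CPB/DHCA libraries and 409, 570, 443 and 332 tags in the control libraries. CPB/DHCA 3 and CPB/DHCA 1 were the highest for both the predicted form and miR-338-3p.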

How the data were processed

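Hippocampal small RNA libraries of 4 CPB/DHCA and 4 control rats were analysed. Per the labels and the paper's methods, the authors trimmed reads with cutadapt 1.9.3 (kept from 15 nt), aligned them with Novoalign 3.02.12 (at most 1 mismatch) to precursors of miRBase and to precursors predicted from the pooled reads of these libraries with miRDeep2, and deposited counts (tags) for each mature name. The processing notes name rn6. They also deposited TPM rounded to whole numbers, treated here as a score and used only as an alternative. A read that fits both a predicted and a miRBase precursor can be counted under either, which bears on the shares of shorter forms.

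Each mature name was used once. Counts were fitted with edgeR 4.0.16 in R 4.3.3 (TMM, quasi-likelihood test, adjustment by Benjamini and Hochberg over all 467 names kept). The 467 include the 2 predicted names left out of the description. Normalized CPM use the same factors. Exact two-sided permutation tests covered 70 assignments. Sequences are those of the deposited table. Gene neighbours came from RefSeq's GRCr8. Python 3.11.15 was used for the rest, and the procedure was tested on simulated counts.

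The set and the lists were chosen with earlier results of these data known. Named by rule were those past the fold and p thresholds, the 10 with the most tags, those within or 1 base from a miRBase sequence, those whose groups do not overlap, and untested ones with at least 8 tags in 1 group and none in the other. chr18_9309, chr2_11574, chr1_1835, chr17_9209, chr17_9211, chr5_16063, chr8_20335 and the miRBase names on chromosome X were named with their values in view. Of the marker lists, leukocytes, endothelium and erythrocytes had 0 of 4, 0 of 2 and 3 of 4 members past the thresholds, all 3 higher in the CPB/DHCA group. Pairs of libraries of a group differed by more than counting error (chi-square per degree of freedom 10.5 to 177), so none was counted as a repeat.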

Additional observations from a re-analysis of the deposited data

Results flagged for a closer look

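5 of 47 groups of 4 libraries held a library far from the other 3 by Dixon's ratio (gap over range, past its 95% critical value). The 47 were taken over the predicted miRNAs described above and over the tag shares of the predicted sequences of both length classes. Chance gives about 1 in 20 for normally distributed values, which counts of a few tags are not. For chr6_17464, CPB/DHCA 2 was high (18.0 CPM, against 12.4 to 13.2 CPM in the other CPB/DHCA libraries, ratio 0.8671). For chrX_22595, CPB/DHCA 4 was low (0 tags, against 4.01 to 4.39 CPM, ratio 0.9114), and for chr18_9309 CPB/DHCA 1 was low (0 tags, against 5.33 to 6.01 CPM, ratio 0.8876). For chr2_11574, control 4 was high (7.99 CPM, against 2.77 to 3.59 CPM in the other control libraries, ratio 0.8433), and for chr1_1840 control 3 was low (0 tags, against 3.05 to 3.59 CPM, ratio 0.85). All 5 rest on 0 to 9 tags in the library concerned. Among the sequences too scarce to test, chrX_22219 stood out with 8 tags in the CPB/DHCA group and none in the control group.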

How the results depend on the processing

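The number of predicted miRNAs lower in the CPB/DHCA group (2) was 1 under DESeq2, with at least 10 counts in at least 4 libraries (14 tested), with limma 3.58.1 on log2(TPM + 10), with the forms of miRBase sequences left out, with the shorter forms added to their miRBase names and with the replicate block, and it ranged from 0 to 2 with 1 library left out (0 without CPB/DHCA 1, CPB/DHCA 3 or control 1). It was 3 with limma on log2(TPM + 1), chrX_22595 being added, and 2 without a filter, where chr1_1744 passed and chr17_9208 did not. The number higher (0) ranged from 0 to 2 with 1 library left out (2 without CPB/DHCA 1, chr17_9252 and chr18_9309, and 1 without control 4, chr18_9309) and was 1 with both libraries numbered 4 left out (chr17_9252), an alternative added after seeing the data, as was the addition of shorter forms. None reached an adjusted p under 0.05 under any alternative run. The median log2 fold change was 0.10 without a filter and 0.12 with the stricter one, and -0.13 to 0.01 with 1 library left out. Over all names, 34 past the thresholds became 12 with limma on log2(TPM + 10), 18 without control 3 and 21 without control 1. Lower among all names were 13 under DESeq2, 9 of 318 with the stricter filter, 5 with limma on log2(TPM + 10) and 18 on log2(TPM + 1). Lower were also 15 of 463 without the forms, 16 of 464 with shorter forms added, 13 with the replicate block and 20 of 615 without a filter. With 1 library left out, 6 to 19 were lower and 9 to 25 higher. With both libraries numbered 4 left out, 23 of 467 were lower and 18 higher, and 2 of the 36 predicted miRNAs tested were lower. The sign turned for chr7_18408 (-0.026 on library totals without TMM, -0.19 and -0.036 with limma at pseudocounts of 1 and 10, -0.089 with the replicate block, -0.23 to 0.37 with 1 library left out), chr2_11574 (-0.10 and -0.0030 with limma at 1 and 10, -0.24 to 0.54), chr1_1835 (0.15 and 0.031 with limma at 1 and 10, -0.25 to 0.062), chrX_22443 (-0.033 to 1.19), chr8_19905 (-0.35 to 0.032, and 0.091 with both libraries numbered 4 left out), chr6_17464 (0.051 with both left out) and chr5_16063 (-0.15 to 0.75), and the cause was not tested. chrX_22595 passed the unadjusted thresholds with limma at a pseudocount of 1 (-0.79), and chr17_9209 without control 2 (-1.10). The log2 fold change of chr18_9309 was 1.29 with empty cells at 1 tag. The main fit did not pair libraries by replicate number. Correlations of same-numbered libraries were 0.19, -0.08, -0.06 and 0.50, the highest being that of the libraries numbered 4, which both had high epithelial miRNAs. With the replicate block, chr17_9208 had a log2 fold change of -0.90 and did not pass. Of the other values of single miRNAs and of shares, 470 counted as unchanged. For a fold change this means the same direction and the same side of the threshold. For a share it means a move smaller than the SD of the control group. The alternatives that only took names out, by length or as forms of miRBase sequences, reused the main fit, so no fold change could move there. Depth limits the 58 untested sequences and those under about 10 tags a library.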
